A study of Mus musculus with 12 samples.

Results

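The genes described here are the calcium-regulated transcription factors Nfatc1, Nfatc2 and Nfatc3, their relative Nfat5, the catalytic subunits of the phosphatase calcineurin (Ppp3ca, Ppp3cb and Ppp3cc) and the calcineurin inhibitors Rcan1 and Cabin1. Each probe set whose only gene symbol in the platform annotation is 1 of these 9 names was taken. This gave 34 of the 45037 probe sets that are not controls, and 9 of the 18193 genes with a probe set of their own. Nfatc2 and Nfat5 have 6 probe sets each, Nfatc1 and Ppp3cb 5 each, Ppp3ca and Cabin1 3 each, and Nfatc3, Ppp3cc and Rcan1 2 each.

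Thymocytes of C57BL/6 mice were sorted by flow cytometry into 4 subsets, lysed without culture or treatment, and total RNA was hybridised to 12 Affymetrix arrays, 3 per subset. Double-negative (DN) cells carried neither CD4, CD8a nor TCRb. Double-positive (DP) cells carried both CD4 and CD8a, with no TCRb gate stated. CD4 single-positive (CD4SP) cells were CD4+CD8a- with high TCRb, and CD8 single-positive (CD8SP) cells were CD4-CD8a+ with high TCRb. The sort is the only difference stated between the groups. The age of the mice is not given, and no label says whether arrays of a subset come from separate mice, and the p-values therefore describe array-to-array spread alone, which may be technical. The DN gate does not exclude cells of other lineages that lack these 3 proteins, and the single-positive gates do not exclude regulatory T cells.

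Calcineurin is a phosphatase switched on by calcium and calmodulin. When the T cell receptor is engaged, calcium leaves the endoplasmic reticulum, the plasma membrane channel opens, and calcineurin removes phosphates from NFAT proteins in the cytoplasm so that they enter the nucleus. There they bind GGAAA sequences, often beside AP-1. Kinases such as GSK3, DYRK and casein kinase 1 put the phosphates back. Nfat5 lacks the calcineurin-binding region of the others and is best known as the factor of the response to osmotic stress. In the thymus, calcineurin and NFAT are known for their part in the survival and the selection of DP cells. Messenger RNA levels, which the arrays measured, do not show phosphatase activity or where NFAT proteins are in the cell.

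The deposited values are log values, read here as log2, from which the mean of the DP arrays had been subtracted for each probe set. A value of 1 therefore stands for a signal 2-fold above the DP mean, the 3 DP values of a probe set average 0, and levels of different probe sets cannot be set against each other. A probe set near 0 on all arrays may be unchanged or too dim to measure, since the signal itself is lost. Differences below are on this log2 scale with their standard errors, and each was tested with limma across all 45037 probe sets. A difference was called at a Benjamini-Hochberg adjusted p under 0.05 within its comparison.

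Against DP, the group means of the sort genes followed the gates. Cd4 was 5.22 higher in DP than in DN and fell by 8.90 from DP to CD8SP, while Cd8a fell by 6.53 from DP to CD4SP. Every DN array, although gated as lacking both proteins, had more Cd4 RNA than the CD8SP arrays (-8.39 to -9.20). Each also had more Cd8a RNA than the CD4SP arrays (-6.35 to -6.84). Cd8a was lower in CD4SP than in DN by 2.81 (-2.81, limma adjusted p = 0.000122). The first DN array was nearer to DP than the other DN arrays, with Cd4 at -3.88 against -6.49 and -5.29 and Cd8a at -2.63 against -4.59 and -3.94. Its mean over the NK list, 1.52, was also the lowest of the 3 (2.91 and 3.06 on the others). The part of this in the DN results was not tested. DN cells also had more RNA of genes that mark other cell types. All 7 measured NK and innate lymphoid markers, 3 of 7 B cell markers and 4 of 9 myeloid and dendritic markers were lower in DP than in DN, including S100a9 by -7.61 and Ms4a1 by -4.96. Of all genes, 18.8% were called lower. The other 4 B cell and 5 myeloid and dendritic markers were not called. The mean over the myeloid list ran from 1.96 to 3.28 on the DN arrays. Nkg7, Klrd1 and other NK list genes are also made by CD8 T cells, and that list's mean was as high in CD8SP (3.04 to 3.48) as in DN (1.52 to 3.06) or higher. In such bulk samples, a different share of cells of a type and a different amount of RNA per cell cannot be told apart, and the part of these other cells in the results was not tested. The first CD8SP array and the first DN array had the lowest weights among the 12 when limma estimated array weights (0.297 and 0.599). Calls of the members that were gained or lost without the first DN array are given beside the results or, for comparisons with DN, together further on.

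Of the 34 probe sets, 13 were called between DP and DN (8 higher in DP, 5 lower), against 35.1% of all probe sets (19.7% higher, 15.4% lower). From DP to CD4SP 14 were called (9 higher, 5 lower), against 28.3% of all (13.6% and 14.7%). From DP to CD8SP 20 were called (11 higher, 9 lower), against 36.0% of all (15.1% and 20.9%). Between CD4SP and CD8SP 2 were called, both higher in CD4SP, against 11.4% of all. At an unadjusted p under 0.05 in limma, 6 would be higher and 2 lower in that last comparison. Of the 2, Nfat5 1439805_at was not called without any 1 CD4SP array or without the second or the third CD8SP array. As shares of the 34 these counts are 38.2%, 41.2%, 58.8% and 5.88%, the first near its background and the last below it. Called changes of at least 2-fold numbered 9 of 34 (26.5%) from DP to CD4SP, against 8.66% of all probe sets, and 9 of 34 from DP to CD8SP, against 10.6%. In CD4SP these 9 belong to Nfatc2, Nfatc3, Ppp3ca and Ppp3cc, and in CD8SP to the same genes and Nfat5. The median difference over the 34 was 0.14 from DP to CD4SP and 0.09 from DP to CD8SP, beside 0.02 and -0.04 over all probe sets. These comparisons share the DP arrays. Over these comparisons and those of the single-positive subsets with DN, 81 differences were called. Quantile normalization of the arrays left 21 of the 81 called. These are the differences described below as called in each of the alternatives run, and the other 60 calls were lost there. The DP arrays had an interquartile range of 0.17 to 0.22, because their mean was subtracted, against 0.58 to 0.77 on the others. Quantile normalization stretches them to the spread of the others, and this enters the error shared by all comparisons. A call lost there therefore does not by itself show that a difference is weak. The share of calls kept there over all probe sets was not counted, so the loss cannot be read as particular to these genes.

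**Figure D1:**
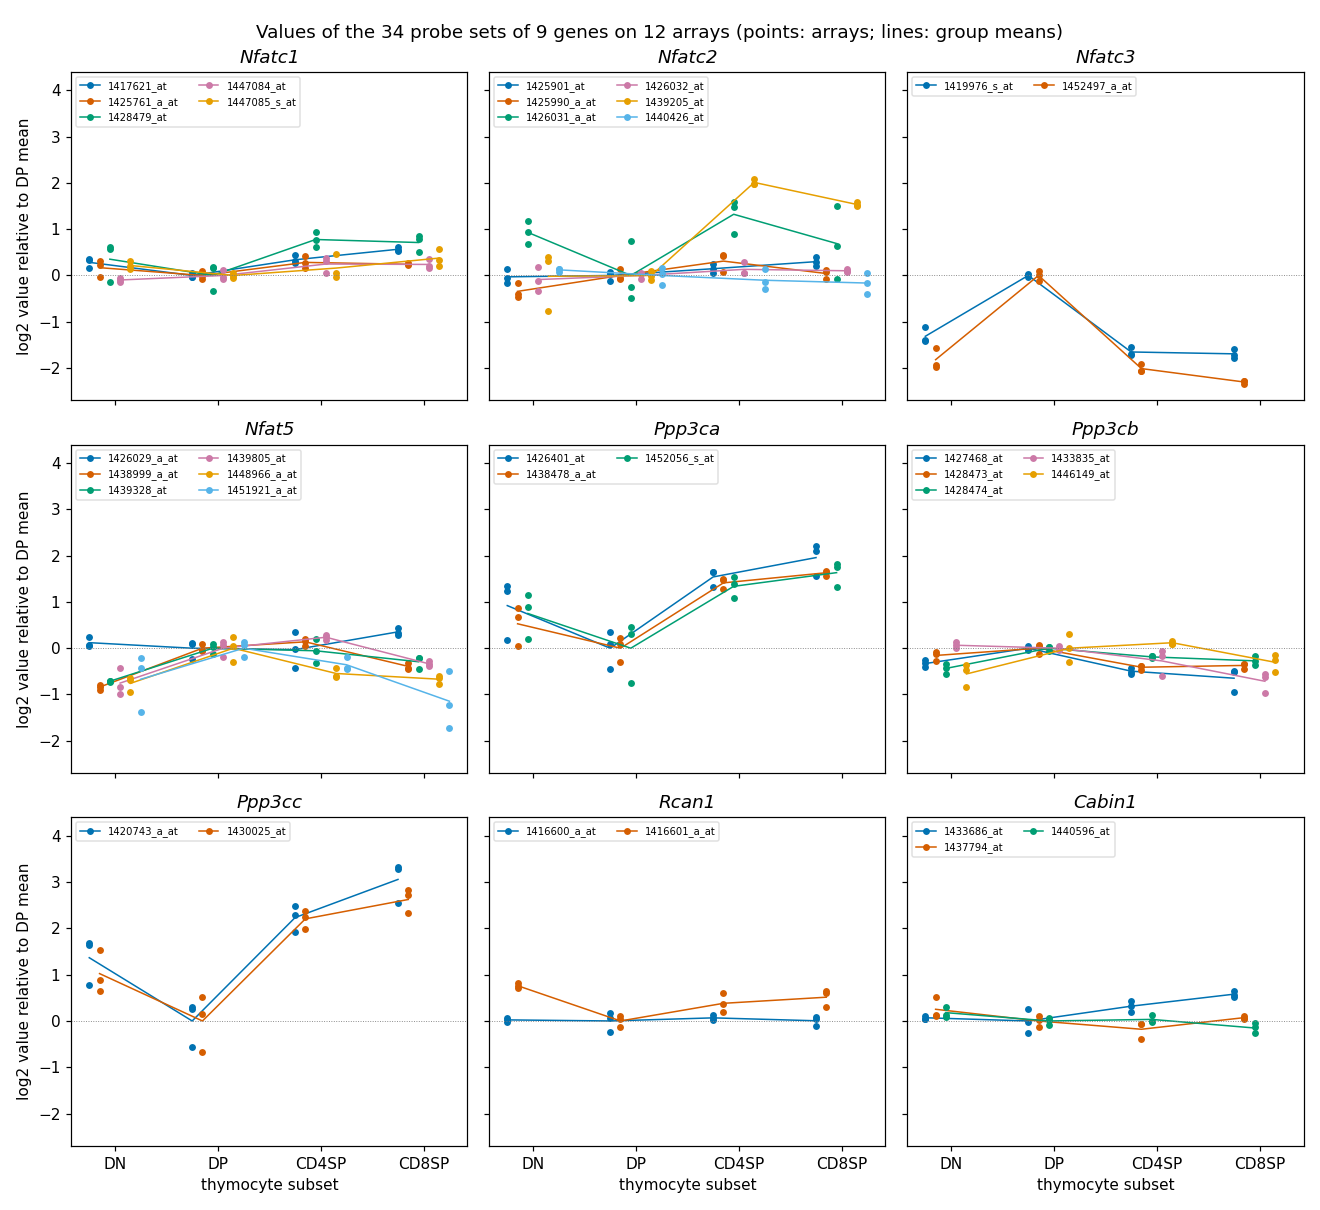
Deposited log2 value relative to the DP mean on each of the 12 arrays (points), by subset, for the probe sets of the 9 genes. Both Nfatc3 probe sets lie at or above -0.11 on every DP array and at or below -1.12 on all others, while Ppp3cc rises from DP to as much as 3.34 in CD8SP.

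Promoter sequence bears on the group because NFAT is known to act on the genes of its own circuit, Rcan1 above all. RefSeq windows on mouse build GRCm38.p6 were used for 9 start sites of 6 of the 9 genes, and those of Nfatc1, Ppp3ca and Ppp3cc were not analysed here. The 250 bases before each start were searched for the NFAT core GGAAA on both strands and for the AP-1 sequence TGANTCA, which reads the same on both strands. Of 32817 such windows over all genes, 55.6% hold at least 1 GGAAA, 6.38% at least 3 and 6.75% a TGANTCA. Of the 9 windows, 6 hold at least 1 GGAAA. Rcan1 has 2 start sites, and they are shown because they differ. The upstream start (chr16:92466170-92466419, minus strand) holds neither motif. The downstream start (chr16:92400079-92400328, minus strand) holds 3 GGAAA, beginning 227, 193 and 163 bases before the start, and 1 TGANTCA at 110 bases, a combination found in 0.457% of all windows. Nfatc3 and Nfatc2 are shown because their RNA moved most among the NFAT factors. The window before the upstream Nfatc3 start (chr8:106058568-106058817, plus strand) holds 1 GGAAA at 28 bases, and that before the downstream start holds 0. The window before the upstream Nfatc2 start (chr2:168601658-168601907, minus strand) holds 3 at 239, 200 and 175 bases, and that before the downstream start holds 1 at 187 bases. Of these windows, those of the upstream starts are printed. Capitals mark the matches, TTTCC being GGAAA on the other strand, and each sequence runs 5′ to 3′ on the gene's strand up to the base before the start. A match is a description of the letters and not a site.
Rcan1 upstream start: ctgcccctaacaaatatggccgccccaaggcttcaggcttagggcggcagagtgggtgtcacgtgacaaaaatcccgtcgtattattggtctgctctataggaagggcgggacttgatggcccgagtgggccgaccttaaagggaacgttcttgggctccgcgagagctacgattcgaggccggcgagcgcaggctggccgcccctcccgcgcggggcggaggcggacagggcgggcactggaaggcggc
Rcan1 downstream start: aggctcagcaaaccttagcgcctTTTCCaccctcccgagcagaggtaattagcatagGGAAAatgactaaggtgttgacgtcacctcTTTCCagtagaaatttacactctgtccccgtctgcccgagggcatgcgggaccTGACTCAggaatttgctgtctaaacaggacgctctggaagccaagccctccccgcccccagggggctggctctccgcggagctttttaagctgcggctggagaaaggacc
Nfatc3 upstream start: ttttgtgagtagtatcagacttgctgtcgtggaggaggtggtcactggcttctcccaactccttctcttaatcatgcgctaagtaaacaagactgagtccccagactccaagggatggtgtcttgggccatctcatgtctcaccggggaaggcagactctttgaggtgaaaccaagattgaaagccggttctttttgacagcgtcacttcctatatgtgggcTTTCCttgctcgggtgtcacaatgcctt
Nfatc2 upstream start: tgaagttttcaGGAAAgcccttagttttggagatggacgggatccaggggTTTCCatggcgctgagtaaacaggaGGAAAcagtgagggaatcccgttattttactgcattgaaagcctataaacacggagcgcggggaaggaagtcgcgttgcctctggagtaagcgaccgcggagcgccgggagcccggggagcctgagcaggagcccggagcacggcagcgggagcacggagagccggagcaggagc

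Nfatc3, an NFAT factor that calcineurin activates, was highest in DP cells and 2.49- to 4.93-fold lower in each other subset by both of its probe sets. Probe set 1452497_a_at read -1.56, -1.93 and -1.97 on the DN arrays, -0.11, 0.02 and 0.10 on the DP arrays, -2.06, -2.07 and -1.91 on the CD4SP arrays and -2.28, -2.28 and -2.35 on the CD8SP arrays. All 3 DP arrays lay above the 9 others, with no overlap. It rose by 1.82 ± 0.12 (SE, n = 3 per group) from DN to DP, or 3.53-fold (limma adjusted p = 1.35e-06), fell by 2.01 ± 0.12 to CD4SP, or 4.04-fold (4.88e-07), and fell by 2.30 ± 0.12 to CD8SP, or 4.93-fold (1.77e-07). Only 0.888% of all probe sets had a larger DN-to-DP difference, and 0.946% a lower DP-to-CD8SP one. Probe set 1419976_s_at read -1.12, -1.43 and -1.40 in DN, 0.02, -0.03 and 0.01 in DP, -1.70, -1.71 and -1.55 in CD4SP and -1.77, -1.71 and -1.60 in CD8SP. The DP arrays were again apart from all others, with differences of 1.31 (2.49-fold), -1.65 (3.15-fold) and -1.69 (3.23-fold), each ± 0.10, and limma adjusted p from 5.98e-07 to 5.07e-06. These 6 calls held in each of the alternatives run. Below DP, the order was less firm. CD8SP lay under DN by both probe sets (-0.48 and -0.38, adjusted p = 0.00784 and 0.0143 in limma), a difference lost after quantile normalization. CD4SP lay under DN by 1419976_s_at (-0.34, adjusted p = 0.0222 in limma, but 0.0799 without the first DN array and 0.0655 and 0.073 without the first or the second CD4SP array). Without the first DN and first CD8SP arrays together, the CD8SP difference of 1419976_s_at was -0.24 and not called (0.0915). Between CD4SP and CD8SP, 1452497_a_at differed by 0.29 (95% interval 0.03 to 0.55) and 1419976_s_at by 0.04 (-0.19 to 0.27), neither called.

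Nfatc2, the NFAT factor best known from mature T cells, rose from DP to the single-positive subsets, where Nfatc3 fell, by the probe set that moved most. 1439205_at read -0.76, 0.40 and 0.31 in DN, -0.09, -0.02 and 0.10 in DP, 2.09, 1.97 and 1.97 in CD4SP and 1.58, 1.53 and 1.49 in CD8SP. Every single-positive array lay above every DN and DP array, and the lowest CD4SP array lay above the highest CD8SP array. It rose by 2.01 ± 0.24 from DP to CD4SP, or 4.03-fold (limma adjusted p = 0.000102), and by 1.53 ± 0.24 to CD8SP, or 2.89-fold (0.000564). Both calls held in each of the alternatives run. DN and DP differed by 0.02 ± 0.24 (adjusted p = 0.966), a comparison that the first DN array decides: without it, DP lay 0.35 below DN (-0.35, adjusted p = 0.0203 in limma). CD4SP and CD8SP differed by 0.48 (95% interval -0.06 to 1.02, adjusted p = 0.254), and without the first DN array, whose spread enters the shared error, the same 0.48 was called (adjusted p = 0.00792 in limma).

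The other 5 Nfatc2 probe sets moved less. 1426031_a_at read -0.25, 0.74 and -0.49 in DP and 1.59, 0.89 and 1.49 in CD4SP, with no overlap, and was 1.32 ± 0.40 higher in CD4SP (limma adjusted p = 0.0316). That call was lost without the first or the third array of either group (0.0908 to 0.115), and the DN arrays of the same probe set, at 1.18, 0.67 and 0.95, were as high as some CD4SP arrays. 1425901_at was 0.30 higher in CD8SP than in DP (adjusted p = 0.0474 in limma), a call lost when any 1 of 10 arrays was left out, for example 0.0584 without the first DN array and 0.158 without the second DP array. 1425990_a_at was higher in CD4SP than in DN by 0.65 (adjusted p = 0.00236 in limma). 1426032_at and 1440426_at were not called in any comparison over all 12 arrays. Without the first DN array, 1426032_at was called higher than in DN in CD4SP (0.36, adjusted p = 0.0324 in limma) and in CD8SP (0.33, 0.04999). The probe sets of Nfatc2 thus did not give the same profile, and the sources used here do not give the transcripts each of them reads.

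Nfatc1, the family member whose short form is induced by NFAT itself, was moderately higher in single-positive than in DP cells. Probe set 1417621_at read 0.17, 0.33 and 0.35 in DN, -0.02, 0.06 and -0.04 in DP, 0.44, 0.31 and 0.27 in CD4SP and 0.56, 0.53 and 0.61 in CD8SP. The CD8SP arrays were above all others and the DP arrays below all others. It was 0.57 ± 0.09 higher in CD8SP than in DP, or 1.48-fold (limma adjusted p = 0.0005), in each of the alternatives run. Its rise from DP to CD4SP was 0.34 ± 0.09 (adjusted p = 0.0145 in limma, but 0.0546 without the third DP array and 0.0577 without the first CD4SP array). DP lay below DN by 0.28 (adjusted p = 0.0285 in limma), a call lost without either of the second and the third DN arrays or the first and the third DP arrays (0.0753 to 0.0924). CD4SP and CD8SP differed by -0.23 (95% interval -0.42 to -0.03, adjusted p = 0.133 in limma), with arrays that did not overlap. A second probe set, 1428479_at, was higher than in DP by 0.78 ± 0.21 in CD4SP and 0.71 ± 0.21 in CD8SP (limma adjusted p = 0.0181 and 0.0223). Without the first DP array these became 0.61 and 0.55 and were not called (0.0719 and 0.0873). The CD4SP call was also lost without the third CD4SP array (0.067), and the CD8SP call without the second or the third CD8SP array (0.0707 and 0.063). The other 3 probe sets of Nfatc1 lay 0.16 to 0.38 above DP in both single-positive subsets, none of these differences being called over all 12 arrays. Without the first DN array, 1425761_a_at was called in CD4SP (0.28, adjusted p = 0.0467 in limma), and without the first CD8SP array 1447085_s_at in CD8SP (0.46, 0.0362). Between DN and DP, 1428479_at differed by -0.35 (0.232) and was called without the first DN array (-0.59, 0.0278). 1447084_at was higher than in DN in both (0.35 and 0.34, adjusted p = 0.0228 and 0.028 in limma). Each of these 2 calls was lost without any 1 of 4 arrays, the first DN array among them (0.0642 and 0.0754).

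Nfat5 was lower in DN than in DP cells by 4 of its 6 probe sets, and 2 of them separated CD4SP from CD8SP. Probe set 1438999_a_at read -0.90, -0.84 and -0.78 in DN, -0.04, -0.05 and 0.09 in DP, 0.20, 0.05 and 0.16 in CD4SP and -0.31, -0.45 and -0.42 in CD8SP. DN was lowest and CD8SP next, while CD4SP and DP overlapped. It rose by 0.84 ± 0.09 from DN to DP, or 1.79-fold (limma adjusted p = 2.88e-05), in each of the alternatives run. From DP it fell by 0.39 ± 0.09 to CD8SP (adjusted p = 0.00428 in limma) and differed by 0.14 ± 0.09 in CD4SP (0.277). CD4SP was 0.53 ± 0.09 above CD8SP, or 1.45-fold (adjusted p = 0.00337 in limma), a call lost after quantile normalization (0.26), as was the fall to CD8SP (0.21). 1439805_at, which read 0.29, 0.24 and 0.18 in CD4SP and -0.34, -0.39 and -0.28 in CD8SP, gave 0.57 ± 0.14 (adjusted p = 0.0241 in limma). Its arrays did not overlap either. That call was lost without any 1 of the CD4SP arrays or without the second or the third CD8SP array (0.0516 to 0.0745), and after quantile normalization (0.598). For the mean over all 6 probe sets the difference, 0.31, missed the threshold (limma adjusted p = 0.0526), and 1426029_a_at differed the other way (-0.38, 0.201).

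Of the other 5 Nfat5 probe sets, 3 were called higher in DP than in DN. 1439805_at, 1439328_at and 1448966_a_at were 0.75, 0.71 and 0.76 higher in DP than in DN (limma adjusted p = 0.00158, 0.0014 and 0.00155), each lost after quantile normalization (0.0599 to 0.241). The other differences were 0.67 for 1451921_a_at (adjusted p = 0.141) and -0.12 for 1426029_a_at (0.644). 1448966_a_at fell from DP in both single-positive subsets, by 0.55 in CD4SP (adjusted p = 0.0132 in limma, 0.0555 without the second DP array) and by 0.67 in CD8SP (0.00328). The former differs in direction from 1438999_a_at, whose CD4SP mean lay 0.14 above that of DP. 1451921_a_at fell by 1.15 ± 0.33 from DP to CD8SP (limma adjusted p = 0.0184), on CD8SP arrays as far apart as -1.72 and -0.49, and was not called without the first or second DP array or the second CD8SP array (0.0523 to 0.0703). 1426029_a_at was not called in any comparison over all 12 arrays.

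Among the calcineurin catalytic subunits, the group means of Ppp3ca and Ppp3cc were lowest in DP and highest in single-positive cells, while the called changes of Ppp3cb from DP to those cells were all falls. Ppp3ca encodes the alpha catalytic subunit. Probe set 1438478_a_at read 0.04, 0.86 and 0.68 in DN, -0.31, 0.08 and 0.23 in DP, 1.27, 1.5 and 1.47 in CD4SP and 1.65, 1.57 and 1.67 in CD8SP. All single-positive arrays lay above all DN and DP arrays, and DN overlapped DP through its first array. It rose by 1.41 ± 0.20 from DP to CD4SP, or 2.66-fold (limma adjusted p = 0.000305), and by 1.63 ± 0.20 to CD8SP, or 3.10-fold (9.06e-05), in each of the alternatives run. 1426401_at rose by 1.54 ± 0.31 and 1.96 ± 0.31 (2.91- and 3.89-fold, limma adjusted p = 0.00359 and 0.000595), and 1452056_s_at by 1.34 ± 0.33 and 1.63 ± 0.33 (0.0101 and 0.00247). These 4 calls were lost after quantile normalization (0.0676 to 0.487). CD4SP and CD8SP differed by -0.22 to -0.42 over the 3 probe sets, and the intervals of all 3 included 0. Over DN, CD4SP was called by 1438478_a_at only (0.88, adjusted p = 0.00454 in limma, 0.163 after quantile normalization). 1426401_at and 1452056_s_at stood at 0.62 and 0.59 there (0.14 and 0.175), with DN and CD4SP arrays that overlapped. CD8SP was called over DN by 1426401_at and 1438478_a_at (1.04 and 1.10) and not by 1452056_s_at (0.88, 0.05325).

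The Ppp3ca calls on the step from DN to DP varied with the arrays left out and with use of the replicate number. 1426401_at was 0.92 ± 0.31 lower in DP (-0.92, adjusted p = 0.0416 in limma), with DN arrays at 0.18, 1.35 and 1.24 and DP arrays at -0.45, 0.35 and 0.10. The groups overlapped through the first DN array, and the call was lost without the second or the third DN array, the first or the third DP array, any 1 CD4SP array or the third CD8SP array (0.0511 to 0.15). 1438478_a_at and 1452056_s_at differed by -0.53 and -0.75 (adjusted p = 0.0624 and 0.1 in limma). Both were called with the replicate number as a block. Without the first DN array the 3 differences became -1.29, -0.77 and -1.02, and all 3 were called (adjusted p = 0.00338, 0.00403 and 0.0378 in limma). The first DP array was also the lowest of its group for all 3 probe sets (-0.45, -0.31 and -0.76) and stayed in that fit. For all 3, each DN array lay above the DP array of the same number.

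Ppp3cc, the gamma catalytic subunit, showed the largest change of all 34 probe sets. 1420743_a_at read 0.78, 1.69 and 1.63 in DN, -0.56, 0.25 and 0.31 in DP, 1.91, 2.30 and 2.49 in CD4SP and 2.56, 3.28 and 3.34 in CD8SP. The 4 subsets did not overlap, in the order DP, DN, CD4SP, CD8SP. It fell by 1.37 ± 0.32 from DN to DP, or 2.58-fold (limma adjusted p = 0.00646). From DP it rose by 2.23 ± 0.32 to CD4SP, or 4.71-fold (0.000328), and by 3.06 ± 0.32 to CD8SP, or 8.33-fold (2.88e-05), the last in each of the alternatives run. The first 2 were not called after quantile normalization (0.276 and 0.073). CD4SP was above DN by 0.87 (adjusted p = 0.0493 in limma), a call lost without the first DN array (0.57, 0.175) and without 7 other arrays. CD8SP lay 0.82 above CD4SP (95% interval 0.12 to 1.53 for CD8SP over CD4SP, adjusted p = 0.13 in limma), so this neighbouring pair was not told apart in the fit without a replicate block. Without the first DN and first CD8SP arrays it was (-1.07 for CD4SP minus CD8SP, adjusted p = 0.0303 in limma). It was also called with the replicate number as a block, as given in the last section. 1430025_at read 0.65, 1.54 and 0.88 in DN, 0.15, 0.53 and -0.68 in DP, 2.00, 2.25 and 2.37 in CD4SP and 2.33, 2.72 and 2.83 in CD8SP. Here CD4SP and CD8SP overlapped, and all 6 single-positive arrays again lay above the other 6. The rises from DP were 2.21 ± 0.30 (4.62-fold) and 2.63 ± 0.30 (6.17-fold; limma adjusted p = 0.000251 and 6.09e-05), not called after quantile normalization (0.142 and 0.0768). The fall from DN to DP was 1.02 (-1.02, adjusted p = 0.0224 in limma) and was not called without the second DN array (0.089) or the third DP array (0.0774).

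Ppp3cb, the beta catalytic subunit, was lower than in DP by 2 of its 5 probe sets in CD4SP and 4 of 5 in CD8SP. The mean over the 5 fell by 0.46 to CD8SP (adjusted p = 0.00168 in limma) and differed by -0.25 in CD4SP (0.051). Probe set 1427468_at read -0.32, -0.41 and -0.26 in DN, -0.03, 0.05 and -0.02 in DP, -0.56, -0.42 and -0.50 in CD4SP and -0.95, -0.52 and -0.48 in CD8SP. The 3 DP arrays were above all 9 others. It fell by 0.50 ± 0.12 from DP to CD4SP, or 1.41-fold (limma adjusted p = 0.0105), and by 0.65 ± 0.12 to CD8SP, or 1.57-fold (0.00168), in each of the alternatives run. 1428473_at fell by 0.41 and 0.37 (adjusted p = 0.00559 and 0.0078 in limma), with arrays that did not overlap, and neither fall was called after quantile normalization (0.076 and 0.287). Of the other probe sets, 1433835_at was called in CD8SP (-0.71, limma adjusted p = 0.00324, 0.0542 after quantile normalization) and not in CD4SP (-0.27, 0.209), and CD4SP and CD8SP differed by 0.44 (95% interval 0.11 to 0.77, adjusted p = 0.0873). Without the first CD4SP array that difference was 0.60 and called (0.023). It was also 0.78 below DN in CD8SP (-0.78, adjusted p = 0.00196 in limma), in each of the alternatives run. 1428474_at fell by 0.27 in CD8SP (adjusted p = 0.035 in limma), a call lost without any 1 DP array or the first or second CD8SP array (0.059 to 0.0927), and stood at -0.19 in CD4SP (0.155). 1446149_at was not called in either, at 0.12 in CD4SP and -0.30 in CD8SP (0.668 and 0.198). On the DN-to-DP step, 1428474_at rose by 0.44 (adjusted p = 0.00307 in limma, 0.111 after quantile normalization) and 1446149_at by 0.56 (0.027). The latter was not called without the second DN array or the first or the third DP array (0.0672 to 0.107). The other 3 were not called, 1427468_at at 0.33 (0.0562) being called without the first CD8SP array (0.0073).

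**Figure D2:**
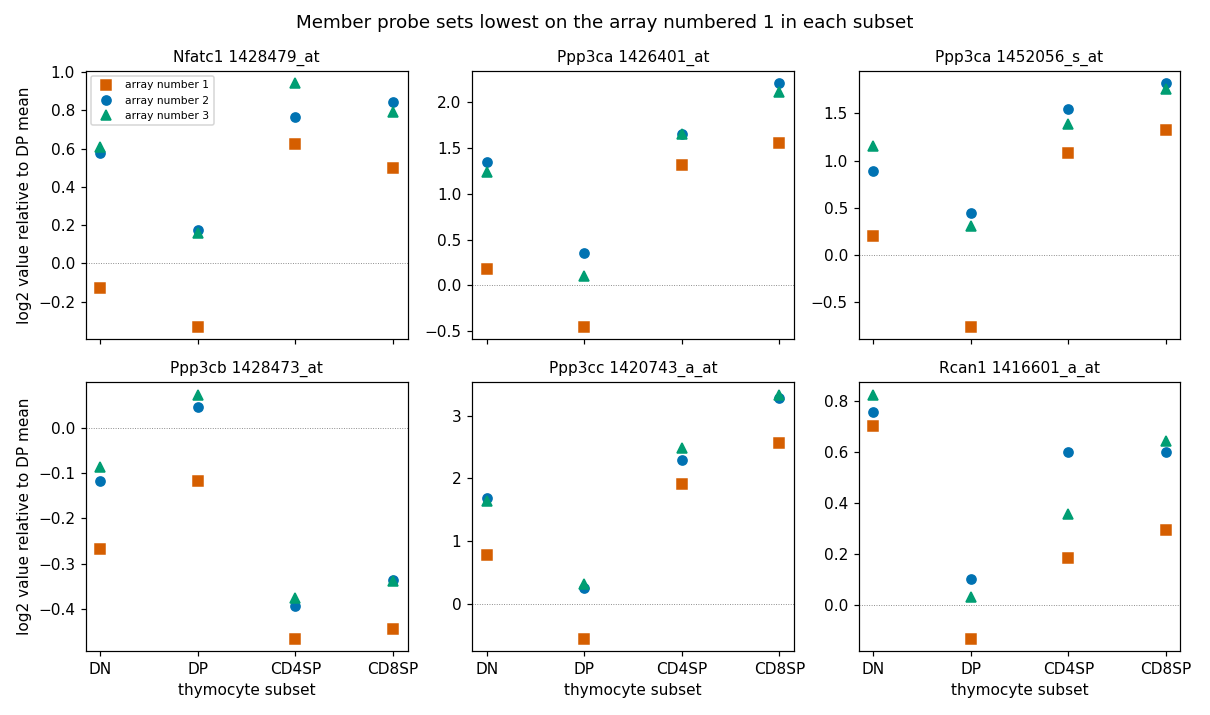
Log2 values relative to the DP mean by array and subset, with a marker for each replicate number, for the probe sets lowest on the array numbered 1 in each subset. For 6 of the 34 probe sets the array numbered 1 was the lowest of its subset in all 4 subsets.

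The array numbered 1 was the lowest in all 4 subsets for 6 of the 34 probe sets, or 17.6%, against 6.93% of all probe sets. They were Nfatc1 1428479_at, Ppp3ca 1426401_at and 1452056_s_at, Ppp3cb 1428473_at, Ppp3cc 1420743_a_at and Rcan1 1416601_a_at. It was the highest in all 4 for 1 of them, Cabin1 1440596_at, against 3.9% of all. The sources used here do not say what the number stands for.

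Rcan1 encodes a small protein that binds and inhibits calcineurin, and its downstream promoter, printed above, is a known NFAT target. The 2 probe sets differed. 1416601_a_at read 0.70, 0.76 and 0.83 in DN, -0.13, 0.10 and 0.03 in DP, 0.18, 0.60 and 0.36 in CD4SP and 0.30, 0.60 and 0.64 in CD8SP. DN was above all other arrays and DP below all others, while the single-positive subsets overlapped. It fell by 0.76 ± 0.13 from DN to DP, or 1.70-fold (limma adjusted p = 0.00101), in each of the alternatives run. It rose by 0.51 ± 0.13 to CD8SP (adjusted p = 0.0104 in limma, 0.163 after quantile normalization) and lay 0.38 ± 0.13 higher in CD4SP (0.0514), which was called without the first CD4SP array (0.029) or the first CD8SP array (0.0291). 1416600_a_at stayed between -0.24 and 0.17 on all 12 arrays and was not called in any comparison. The sources used here do not say which Rcan1 start each probe set reads. The myeloid and NK lists above were also highest or high in DN, and their part in the DN level of Rcan1 was not tested.

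Cabin1, a large nuclear protein that binds calcineurin and represses MEF2 factors, changed little, and its called changes went in both directions. 1433686_at read -0.25, -0.01 and 0.27 in DP and 0.53, 0.64 and 0.57 in CD8SP, with no overlap. It was 0.58 ± 0.13 higher in CD8SP, or 1.49-fold (limma adjusted p = 0.00422, 0.432 after quantile normalization), and 0.51 higher than in DN (0.00869). 1437794_at was 0.43 lower in CD4SP than in DN (-0.43, adjusted p = 0.0222 in limma) and 1440596_at 0.33 lower in CD8SP than in DN (-0.33, 0.0211). The former was not called without the second DN or the third CD4SP array (0.0862 and 0.0887), and the latter without the first DN or the second CD8SP array (0.0758 and 0.0744). No Cabin1 probe set was called between DN and DP, between CD4SP and DP, or between CD4SP and CD8SP by limma. Of these 9 differences, the largest in size was 0.32, for 1433686_at from DP to CD4SP, the only 1 of the 9 at an unadjusted p under 0.05 (0.0284). Without the third DP array it was 0.45 and called (0.0178).

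**Figure D3:**
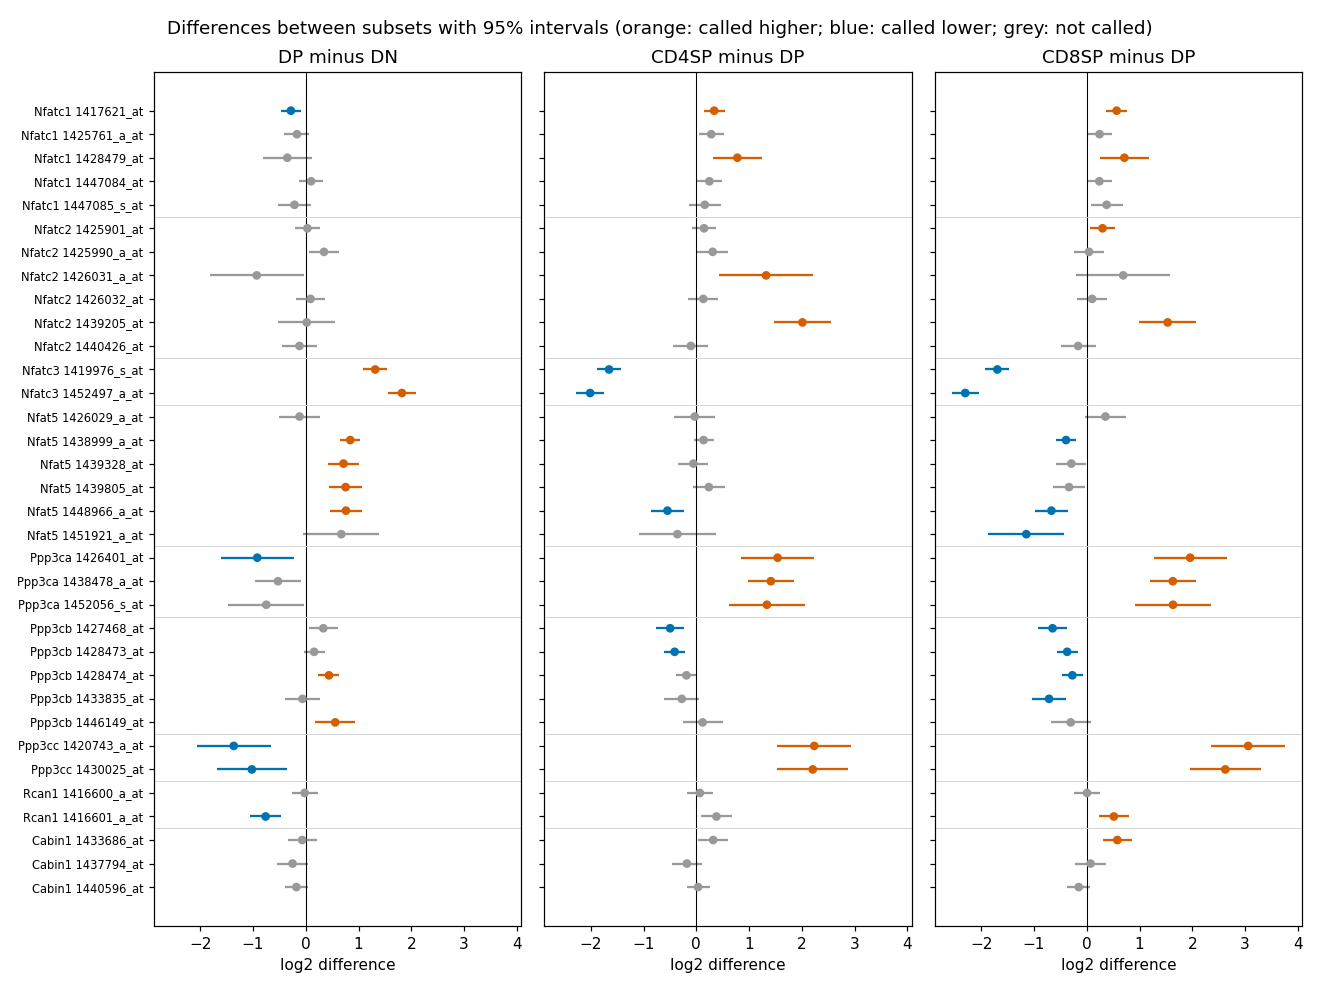
Log2 differences with 95% intervals for each of the 34 probe sets from DN to DP, from DP to CD4SP and from DP to CD8SP, with called differences marked. Nfatc3 stands at 1.31 and 1.82 in the first comparison and at -1.65 to -2.30 in the others, and Ppp3cc reaches 3.06 in CD8SP.

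Against DN, 15 of the 34 probe sets were called in CD4SP (11 higher, 4 lower), beside 41.2% of all probe sets, and 17 in CD8SP (13 higher, 4 lower), beside 38.3%. The CD4SP count was 9 without the third CD4SP array and the CD8SP count 10 without the first DN array. Nfatc2 1439205_at was highest of the members in CD4SP, at 2.03 (4.08-fold) over DN, and stood at 1.55 (2.93-fold) in CD8SP (limma adjusted p = 6.55e-05 and 0.000557), in each of the alternatives run. Ppp3cc 1420743_a_at stood at 1.69 (3.23-fold) and 1430025_at at 1.60 in CD8SP over DN (0.00178 and 0.00183), and neither was called after quantile normalization (0.156 and 0.271). Nfat5 1438999_a_at was 0.98 higher in CD4SP than in DN (7.04e-06) and 1439805_at 0.99 higher (0.000202), both in each of the alternatives run. Other calls in CD8SP over DN were lost without the first DN array: Nfatc1 1417621_at (0.22, adjusted p = 0.0947 in limma), Nfatc2 1425901_at and 1425990_a_at (0.31 and 0.32, 0.0759 and 0.124), Nfat5 1439328_at and 1439805_at (0.41 and 0.30, 0.0597 and 0.127) and Ppp3ca 1426401_at (0.67, 0.0689). Those of 1425901_at, 1425990_a_at, 1439328_at and 1439805_at were also lost without the first CD8SP array (0.0697 to 0.0916). In CD4SP, Ppp3cb 1428474_at over DN (0.26, 0.0778) and Rcan1 1416601_a_at under DN (-0.41, 0.0583) were not called without the first DN array. From the lowest level to the highest, then, Nfatc3 ran from the single-positive subsets through DN to DP, Nfatc2 1439205_at from DN and DP to CD8SP and CD4SP, and Ppp3cc from DP through DN to CD4SP and CD8SP. In the fit without a replicate block, the neighbours not told apart in these orders were CD4SP and CD8SP for all 3 genes, DN and DP for Nfatc2, and CD4SP and DN for Nfatc3 by 1452497_a_at (-0.19, 95% interval -0.45 to 0.07). With the block, CD4SP and CD8SP were told apart for Ppp3cc 1420743_a_at.

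Genes around calcineurin and NFAT were taken from 3 lists and tested as means over each gene's probe sets, across 18193 genes. Of these, 36.6% were called between DP and DN, 32.7% between CD4SP and DP, 39.0% between CD8SP and DP and 12.7% between CD4SP and CD8SP. Of 15 measured regulators of calcineurin and NFAT, 6 rose and 1 fell from DN to DP. The kinases that phosphorylate NFAT were among the 6: Gsk3b rose by 0.95 ± 0.07, Dyrk1a by 0.70 ± 0.12 and Csnk1a1 by 0.61 ± 0.07 (limma adjusted p = 3.25e-06, 0.000728 and 6.44e-05), as did Ppp3r1, the regulatory subunit of calcineurin, by 0.46 ± 0.08 (0.000796). The 1 lower, Rcan2, was not called without any 1 of the first and second DN and the second and the third DP arrays. From DP to CD8SP 4 were higher and 7 lower, with Gsk3b, Dyrk1a, Gsk3a and Csnk1a1 falling by 0.81, 0.98, 0.62 and 0.55 (adjusted p from 7.89e-06 to 0.000122 in limma). Another DYRK kinase, Dyrk2, was among the 4 higher, by 0.56 ± 0.17 (adjusted p = 0.0222 in limma), a call lost without the first DP array or the second or the third CD8SP array and after quantile normalization. The 4 higher were 2 without the second or the third CD8SP array. From DP to CD4SP 3 were higher and 4 lower, and the 3 higher were 5 without the first CD8SP array. Rcan3, a relative of Rcan1, rose most, by 2.26 ± 0.13 or 4.80-fold (3.96e-07), and was 1.43 above CD8SP (0.000103). Between the single-positive subsets 4 were higher in CD4SP, Fkbp1a, the FK506-binding protein, among them (0.80 ± 0.11, adjusted p = 0.000855 in limma), and none lower, also at an unadjusted p under 0.05.

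Of 13 measured genes of calcium signalling, 7 rose and 2 fell from DN to DP. Orai3, a subunit of the plasma membrane calcium channel, fell by 2.62 ± 0.17 or 6.14-fold (limma adjusted p = 1.16e-06), while its relative Orai2 rose by 1.45 ± 0.16 (3.29e-05). Itpkb, a kinase that removes the calcium-releasing messenger IP3, rose by 1.82 ± 0.13 (2.14e-06). From DP to CD4SP 3 were higher and 2 lower, and to CD8SP 3 higher and 3 lower. Orai1 rose by 1.81 ± 0.12 and 1.59 ± 0.12, and Orai3 by 1.66 ± 0.17 and 2.74 ± 0.17 (limma adjusted p from 6.04e-07 to 2.58e-05). Itpr2, an IP3 receptor, fell by 0.84 and 0.82 (1.02e-05 and 1.05e-05). Between CD4SP and CD8SP 2 were higher and 1 lower, Orai3 by -1.08 ± 0.17 (0.00257). The counts of 1 to 3 in this list moved with single arrays: the 2 lower in DP were 1 without any 1 of 8 arrays, the 3 higher in CD4SP were 5 without the first CD8SP array, the 2 lower there were 1 without any 1 of 7 arrays, and the 2 higher in CD4SP than in CD8SP ranged from 0 to 4. After quantile normalization 3 regulators and 4 calcium signalling genes were called higher in DP than in DN, in place of 6 and 7.

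Of 20 genes known as NFAT targets, 12 were higher in CD4SP than in DP and 9 higher in CD8SP than in DP, against 16.4% and 18.2% of all genes called higher. None was lower in either by limma, also at an unadjusted p under 0.05. Nr4a1, an immediate early gene of T cell receptor signalling, rose by 3.11 ± 0.28 to CD4SP, or 8.64-fold, the transcription factors Irf4 and Egr2 by 2.45 ± 0.21 and 2.38 ± 0.23, and the cytokine Tnf by 1.75 ± 0.13 (limma adjusted p from 2.78e-06 to 1.5e-05). Irf4 read 2.38, 2.39 and 2.58 in CD4SP and -0.23 to 0.65 on the DN and DP arrays. In CD8SP the chemokine Xcl1 rose by 3.71 ± 0.22, or 13.1-fold, with Egr3 at 1.82 ± 0.20, Tnf at 1.36 ± 0.13 and the chemokine Ccl4 at 1.08 ± 0.13 (4.33e-07 to 6.73e-05). Il2 itself, the classic target, was not called in either (-0.08 ± 0.30 and -0.47 ± 0.30). Between CD4SP and CD8SP 7 were higher and 2 lower, with Irf4, Ctla4 and Cd40lg 1.51, 1.35 and 1.25 higher and Xcl1 lower by -3.43 (limma adjusted p from 7.97e-06 to 0.00241). The 2 lower were 1 without the first CD4SP or the second CD8SP array. The regulatory T cell list moved with these, 3 of its 5 genes being higher in CD4SP than in DP (Tnfrsf18 by 2.15, and Ctla4, which is on both lists, by 2.06). In CD8SP 3 of the 5 were also higher than in DP, and between CD4SP and CD8SP 3 were higher and 1 lower. Xcl1 is also made by NK cells, whose list had its highest mean in CD8SP. There 4 of the 7 NK list genes were called above DP, against all 7 in DN, where Xcl1 read -0.43, 0.18 and 0.27. The part of regulatory T cells and NK cells in these values was not tested. After quantile normalization 7 and 4 of the 20 were called higher in CD4SP and in CD8SP than in DP, and 0 higher and 1 lower between CD4SP and CD8SP.

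Between DN and DP 3 of the 20 targets were lower in DP: Pdcd1 by -2.82 ± 0.24, Ctla4 by -2.07 ± 0.21 and Fasl by -0.94 ± 0.14 (limma adjusted p = 6.08e-06, 2.18e-05 and 0.000353). Of all genes, 18.8% were called lower, a share no smaller than that of the targets. The call of Ctla4 was lost after quantile normalization. None was higher in limma, with 1, Egr2 (0.62, adjusted p = 0.0549), at an unadjusted p under 0.05. Without the first DN array the lower genes were 7. Egr2 was called higher without the third DN or the first DP array, and with the replicate number as a block. Pdcd1 read 2.26, 3.11 and 3.10 in DN. The first DN array was the lowest of the 3, as it was for Ppp3ca and Ppp3cc.

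**Figure D4:**
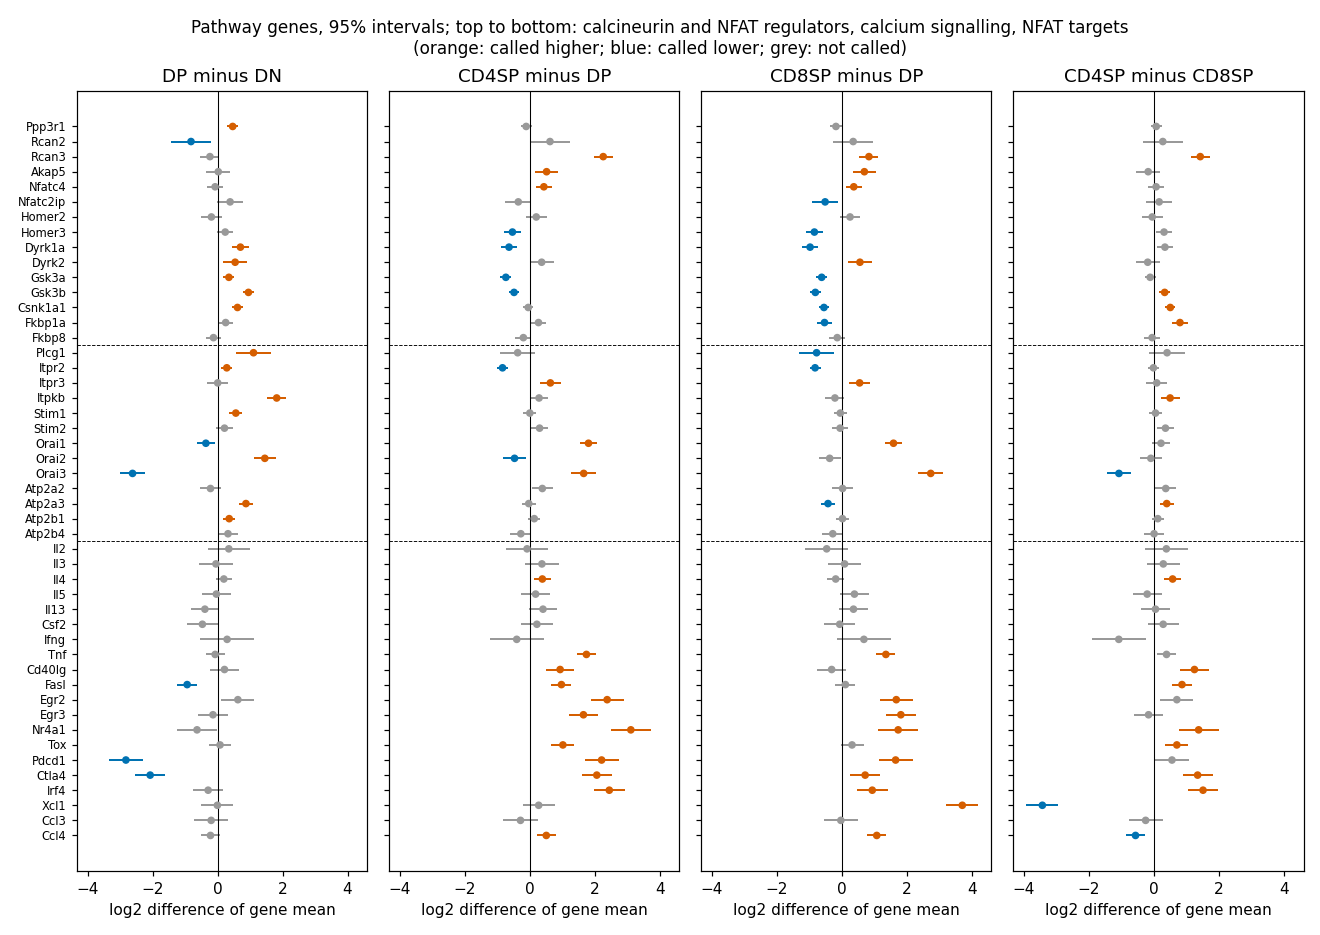
Log2 differences (gene means over probe sets) of the listed regulators, calcium signalling genes and NFAT targets in the comparisons with DP and between CD4SP and CD8SP, by list, with called genes marked. NFAT targets called from DP to the single-positive subsets lie to the higher side only, 12 of 20 in CD4SP and 9 of 20 in CD8SP.

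The genes whose means over the 12 arrays were most alike to each member were found among 3327 genes with an SD of at least 0.5. These are correlations over arrays of only 4 subsets, so that any gene with a like order of subset means scores high. Nfatc3 was most like Mef2a (Pearson r = 0.994) and Insl5 (0.992), Ppp3cc most like Prkch (0.987) and Mx1 (0.983), and Ppp3ca most like Cygb (0.983) and Ehd3 (0.982). Nfatc1 was most like Gpr171 (0.975) and Ppp3ca (0.972), which is itself a member. For Nfatc2 the nearest were Ext1 (0.956) and Nr4a3 (0.952), for Nfat5 Mir22hg (0.957) and Satb1 (0.944), and for Ppp3cb Pan3 (0.951) and Sav1 (0.937). Rcan1 was most like Nol10 (0.925) and Heatr3 (0.924). Cabin1, whose mean over probe sets varied least (SD 0.0933), had the lowest values, 0.847 for Pinx1 and 0.829 for Cylc1. That mean hides opposite changes, such as 0.51 for 1433686_at and -0.33 for 1440596_at in CD8SP against DN.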

How the data were processed

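The deposited values, read here as log2 since the sources used here do not state the base, are 1 per probe set and array, and the authors made them with MAS5, per the submitters' processing notes. The DP mean of every probe set is 0 to within 1.27e-06, so the authors had subtracted it, and dim probe sets could not be filtered. More than 1 chip version is named in the series' design. Probe sets were named through the platform annotation, leaving out 64 controls. All columns were mapped to samples (0 unmapped).

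Group means of the 4 subsets were fitted to the 12 arrays with lmFit, contrasts.fit and eBayes without trend (limma 3.58.1, R 4.3.3). p-values were adjusted by Benjamini-Hochberg within each of 6 comparisons. The procedure was tested on simulated data. Gene means were averages over the probe sets of a gene. The number of arrays limits the precision.

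Every member probe set is named. Of each pathway list up to 4 genes per comparison with the lowest adjusted p are named, with Rcan2, Dyrk2 and Il2 added after their values were seen. Of each marker list up to 2 genes are named, and for each member the 2 genes with the highest correlation. The members and lists were chosen with earlier results of these data known. Alternatives were each array left out, DN replicate 1 and CD8SP replicate 1 left out together, the replicate number as a block, array weights, the 6 arrays compared alone, other eBayes priors, median and quantile scaling, other sets of probe sets, and gene means. A factor for the arrays numbered 1, and the alternatives for the pathway lists, were added after seeing the data.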

Additional observations from a re-analysis of the deposited data

Results flagged for a closer look

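For 2 Nfat5 probe sets the change from DP differed between the single-positive subsets, as tested by limma's comparison of CD4SP with CD8SP. The change of 1438999_a_at was 0.14 to CD4SP and -0.39 to CD8SP, a difference of 0.53 (adjusted p = 0.00337, CD4SP above CD8SP on 3 of 3 arrays). That of 1439805_at was 0.24 and -0.34, a difference of 0.57 (adjusted p = 0.0241, also without overlap of the arrays). Neither was called after quantile normalization (0.26 and 0.598). The mean over the 6 Nfat5 probe sets differed by 0.31 (adjusted p = 0.0526 in limma, not called), and 1426029_a_at by -0.38 (0.201, not called). Groups of 3 arrays were too small to test for single outlying arrays.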

How the results depend on the processing

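Of 204 differences (34 probe sets in 6 comparisons), 81 were called. Of the 81, 21 kept the call in all alternatives run and 52 in all but quantile normalization, and none changed sign. Of the 123 not called, 27 gained a call at least once. Nfatc2 1439205_at between DP and DN, 0.02 and not called, became -0.35 and called without the first DN array, alone or with the first CD8SP array, and ranged from -0.35 to 0.23 when 1 array was left out. In the order DP against DN, CD4SP and CD8SP each against DP, CD4SP against CD8SP, and CD4SP and CD8SP each against DN, quantile normalization left 4, 5, 7, 0, 3 and 2 called probe sets in place of 13, 14, 20, 2, 15 and 17. It gives the DP arrays, whose interquartile range is 0.17 to 0.22 because their mean was subtracted, the spread of the others (0.58 to 0.77). That spread enters the error shared by all comparisons, those without DP included. The calls left over all probe sets under quantile normalization were not counted. Gene means gave 5, 5, 7, 0, 3 and 4 of 9 genes (55.6%, 55.6%, 77.8%, 0%, 33.3% and 44.4%). Of all genes, 36.6%, 32.7%, 39.0%, 12.7%, 43.7% and 40.9% were called. The share in CD8SP minus DN was thus near its background and that in CD4SP minus DN below it. Where the count was 0, limma gave 1 probe set and 3 genes at an unadjusted p under 0.05. Only probe sets above the median SD gave 13 for CD8SP minus DP and 9 for CD4SP minus DN. Leaving out the first DN and first CD8SP arrays gave 4 for CD4SP minus CD8SP and 10 for CD8SP minus DN. The 6 arrays compared alone gave 9 for CD4SP minus DN and 9 for CD8SP minus DN. Leaving out 1 array at a time gave 9 to 17, 12 to 15, 16 to 21, 1 to 3, 9 to 15 and 10 to 17. With the replicate block the counts were 17, 15, 20, 3, 17 and 20. Of 18 pairs of arrays with the same number in different subsets, 6 had deviations correlated above 0.1 (range -0.0157 to 0.147). Of the 6, 5 were among the 6 pairs of arrays numbered 1, and no pair of unlike numbers was above 0.0774. In all, 11 of 12 arrays correlated best with an array of their own number. The main fit left the number out, since the sources used here do not say what it stands for. Any variation shared by arrays of the same number therefore stays in the error of that fit. The block added 12 calls and lost 1. Among those added were Ppp3ca 1438478_a_at and 1452056_s_at between DP and DN (-0.53 and -0.75, adjusted p = 0.027 and 0.00782 in limma) and Ppp3cc 1420743_a_at between CD4SP and CD8SP (-0.82, 0.00213), and of the targets Egr2 was called higher in DP than in DN. A factor for the arrays numbered 1, chosen after seeing the data, added 14 calls and lost none. With 3 arrays per group and no signal level deposited, uncalled differences were bounded only by their intervals.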
